A study of Homo sapiens with 18 samples.

Results

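The HOX genes of the 4 clusters were the 38 rows of the count table whose Ensembl identifier carries the symbol of a HOXA, HOXB, HOXC or HOXD gene on the list used here, out of 57736 genes in all. They were 10 genes of HOXA, 10 of HOXB, 9 of HOXC and 9 of HOXD, and each symbol matched 1 identifier. In GRCh37 (hg19), the build of the deposited counts, HOXA lies at chr7:27139973-27239710 on the minus strand, HOXB at chr17:46605888-46806112 on the minus strand, HOXC at chr12:54332615-54449814 on the plus strand and HOXD at chr2:176957449-177055635 on the plus strand. The question asked of them was which are detectable in each genotype, as a record of cell identity, and how the 6 groups of libraries differ.

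HOX genes encode transcription factors that bind DNA through a homeodomain and tell cells where they lie along the body axis. Genes at the same place in different clusters form numbered paralog groups: the low numbers act towards the head, the high numbers towards the tail, and a cell largely keeps the combination it acquired in the embryo, with Polycomb proteins holding silent clusters shut and Trithorax proteins holding active clusters open. In the Müllerian duct, from which the oviduct and uterus form, HOXA9, HOXA10, HOXA11 and HOXA13 are known for marking successive regions.

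mRNA was measured in A1847, an established human ovarian cancer cell line, as control cells, as CARM1 knockout cells and as XBP1 knockdown cells. Each genotype was treated for 8 h with vehicle or with 5 µg/ml tunicamycin, which blocks N-glycosylation and so stresses the endoplasmic reticulum, in 3 libraries per group and 18 libraries in all. CARM1, a protein arginine methyltransferase, was targeted with a lentiviral CRISPR guide under puromycin selection, and XBP1, a transcription factor of the unfolded protein response, with 1 shRNA. Whether the knockout cells are 1 clone is not stated in the sources used here, nor is whether the control cells, labelled wild type, carried a vector. Whether loss of CARM1 or another difference between the knockout and control cells lies behind a difference between their libraries was not tested. In comparisons of genotypes, fell and rose give only the direction against the control libraries. The labels do not say that the replicates are separate cultures, so p-values measure only the spread between libraries, which may be technical, and both modified genotypes were compared with the same control libraries.

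Library totals were 9367462 to 13917212 expected counts, and 17317 genes passed the filter on low counts. The CARM1 knockout libraries stood apart: their correlations with the other libraries (log2 CPM over the genes tested) were 0.730 to 0.775, against 0.986 to 0.989 between replicates and 0.961 to 0.987 between control and XBP1 knockdown libraries. CARM1 itself had 2136 to 2389 counts in vehicle-treated control cells and 625 to 946 in vehicle-treated knockout cells (log2 fold change −1.17, SE 0.0523). XBP1 had 587 to 661 counts in vehicle-treated control cells and 339 to 378 in vehicle-treated knockdown cells (log2 fold change −0.86, SE 0.0859). Of 13 ovarian or Müllerian epithelial markers, 5 were detectable in every control library and 9 in every CARM1 knockout library, and their summed level was 314 to 492 CPM (counts scaled to library size) in control, 133 to 217 in XBP1 knockdown and 2273 to 2789 in CARM1 knockout cells. PAX8, a defining Müllerian factor, had 0 to 2 counts in every control and XBP1 knockdown library and 465 to 840 in the CARM1 knockout libraries, WT1 had 0 to 2 in the control libraries and 3 to 13 in the knockout libraries, and SOX17 and MUC16 had at most 1 count in any library. KRT19, an epithelial keratin of the same list, went the other way, with 5 to 16 counts in vehicle-treated control and 0 in vehicle-treated knockout libraries. Of 7 fibroblast markers, 6 were detectable in every control, 5 in every XBP1 knockdown and 2 in every CARM1 knockout library, with summed levels of 920 to 1162, 756 to 1105 and 187 to 502 CPM, although COL1A1, a collagen of that list, had 169 to 259 counts in vehicle-treated control and 3996 to 6247 in vehicle-treated knockout libraries. Of 5 immune markers, 0, 0 and 2 were detectable in control, XBP1 knockdown and CARM1 knockout cells, with at most 2.01, 1.26 and 10.4 CPM summed. None of 3 endothelial markers was detectable in any genotype, with at most 0.318 CPM summed. These epithelial, fibroblast and immune markers moved with the HOX genes between CARM1 knockout and the other genotypes, and their part in the HOX results was not tested. In bulk RNA, fewer cells with a transcript and less transcript per cell cannot be told apart.

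A gene was called detectable in a group or genotype when every library had more than 3 counts, and not detectable when every library had at most 3; 3 counts corresponded to 0.201 to 0.344 CPM across the libraries. Because libraries were made from the 3 prime ends of transcripts, a gene or a sum of genes was compared between libraries, and the levels of different genes were not set against each other. In control cells, 24 of 38 HOX genes were detectable in all 6 libraries: HOXA2 to HOXA7 and HOXA9 to HOXA11, HOXB2 to HOXB9, HOXC6, HOXC8, HOXC9 and HOXC10, and, near the limit, HOXD3, HOXD9 and HOXD13. By group, 26 genes were detectable with vehicle and 24 with tunicamycin, since HOXB13, with 1 to 6 counts, and HOXC4, with 0 in 1 library, did not reach the limit in every tunicamycin library. HOXA13, HOXB1, HOXC5, HOXC12, HOXC13, HOXD1, HOXD11 and HOXD12 were not detectable in any control library.

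XBP1 knockdown cells had 23 detectable HOX genes, 23 with vehicle and 26 with tunicamycin. Of the 24 genes detectable in control cells, 21 (87.5%) were also detectable in every XBP1 knockdown library, against 96.4% of all genes detectable in control cells. From the other side, these were 91.3% of the 23 knockdown genes, against 96.9% over all genes. The 3 control genes that fell short were HOXD3, HOXD9 and HOXD13, each with a lowest count of 1 to 3 and a highest of 9 to 24 in the knockdown libraries, so that no loss of a HOX gene was detectable at this depth. The 2 genes detectable in the knockdown only were HOXC4 and HOXD8, and both were mixed in control cells. HOXC4 was mixed only through 0 counts in tunicamycin-treated control library 2, where another row had 162 counts, as described below.

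CARM1 knockout cells had 25 detectable HOX genes, 25 with vehicle and 29 with tunicamycin, 1 more than control cells and not the same members. HOXC4 was detectable in the tunicamycin group only, since it had 0 counts in vehicle-treated knockout libraries 1 and 2, which is described below. Of the 24 control genes, 19 (79.2%) were also detectable in every knockout library, against 91% of all genes detectable in control cells. These 19 were 76% of the knockout genes, against 87.6% of all genes detectable in knockout cells. HOXA6 was the 1 control gene with at most 3 counts in every knockout library, a switch shared by 2.77% of all genes detectable in control cells. HOXA2, HOXA7, HOXA9 and HOXB8 were detectable in control cells and passed the limit in only some knockout libraries. In the opposite direction, HOXC13 and HOXD11 were detectable in every knockout library and had at most 3 counts in every control library, as 5.43% of all genes detectable in knockout cells did. HOXB13, HOXC11, HOXD4 and HOXD8 were detectable in every knockout library and in only some control libraries. HOXD11 stayed near the limit, with 4, 6 and 4 counts in the vehicle-treated knockout libraries and 3, 0 and 0 in the control libraries.

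The 16 HOX genes detectable in every library of all 3 genotypes were HOXA3, HOXA4, HOXA5, HOXA10, HOXA11, HOXB2 to HOXB7, HOXB9, HOXC6, HOXC8, HOXC9 and HOXC10. Of the other genes, 3 had at most 3 counts in all 18 libraries. HOXC12 and HOXD12 had 0 counts in each, and HOXB1, which acts in the hindbrain, had at most 1. HOXA13, HOXC5 and HOXD10 exceeded 3 counts in 1, 2 and 7 libraries but in every library of no group: HOXA13 reached 5 in a vehicle-treated knockout library, HOXC5 reached 8 in a vehicle-treated XBP1 knockdown library and HOXD10 reached 8 in a vehicle-treated knockout library. HOXC5 shares 1084 exon bases with ENSG00000273046, a long noncoding RNA gene in GENCODE that had 97 to 110 counts in the vehicle-treated control libraries, and HOXD10 and HOXD11 share 452 exon bases. In all, 15 HOX genes share exon bases with another gene of the table on their strand and 19 with a gene on the opposite strand. Whether the counting used strand is not stated in the sources used here, so reads of such pairs may have been divided between them.

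**Figure D1:**
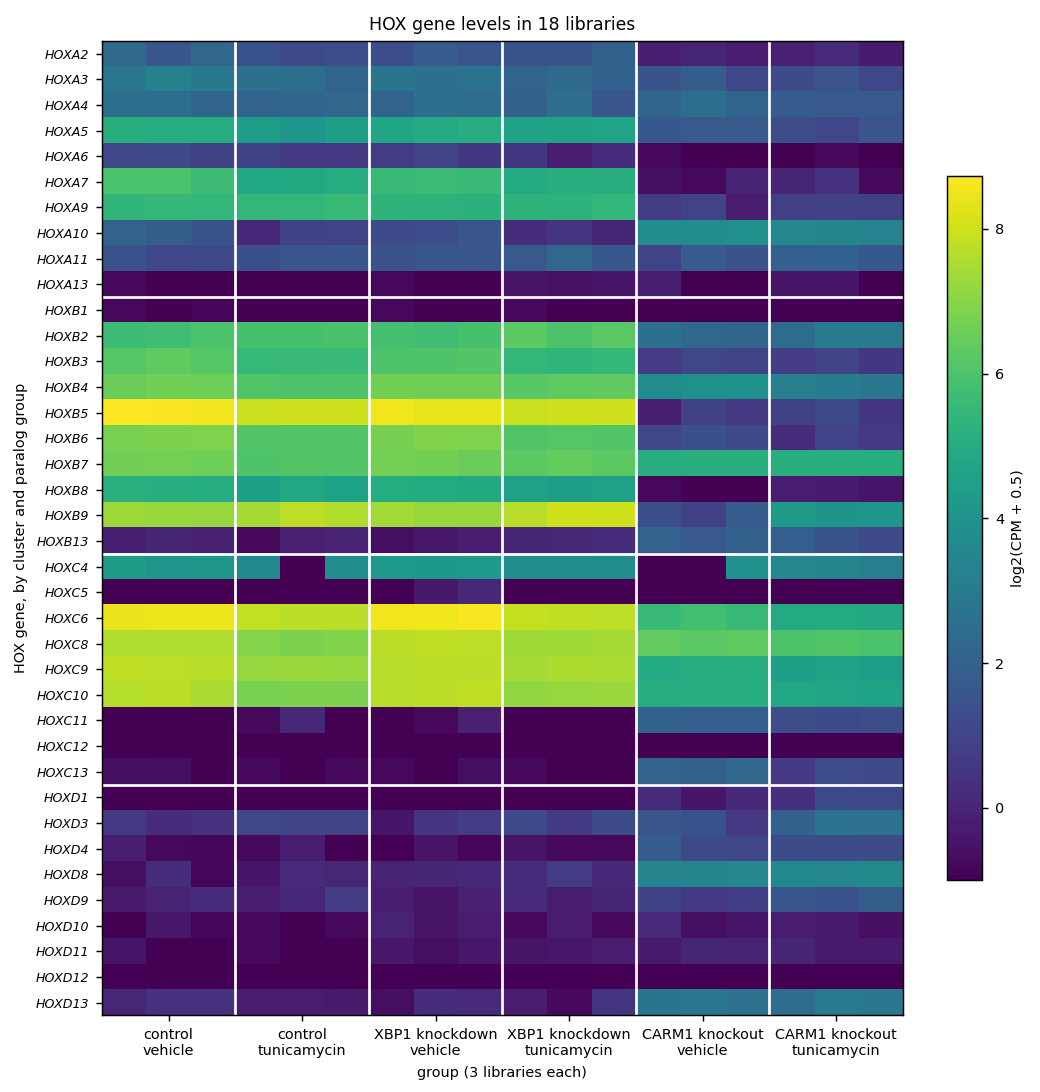
Level of the 38 HOX genes (rows, by cluster and paralog group, white lines between clusters) in the 18 libraries (columns, 3 per group) as log2 of CPM plus 0.5, where darker is lower. The CARM1 knockout columns are darker than the other columns of the same row for HOXA5 to HOXA9 and HOXB2 to HOXB9, and lighter for HOXA10, HOXC11, HOXC13 and HOXD8.

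The summed HOX level shows the scale of the change. The 38 genes together had 2159 ± 56.4 CPM (SD, n = 3) in vehicle-treated control cells, 2140 ± 15.4 in vehicle-treated XBP1 knockdown cells and 318 ± 8.75 in vehicle-treated CARM1 knockout cells. With tunicamycin these sums were 1497 ± 18.5, 1706 ± 53.8 and 280 ± 7.96 CPM (SD, n = 3 each). The libraries of the knockout did not overlap with those of either other genotype. By cluster, with vehicle, control cells had a HOXA sum of 157 ± 9.0 CPM, the XBP1 knockdown 136 ± 5.06 and the CARM1 knockout 26.8 ± 1.85. The HOXB sum was 1028 ± 25.7, 968 ± 26.7 and 61.8 ± 2.38 CPM, and the HOXC sum 971 ± 21.9, 1033 ± 25.1 and 206 ± 7.85 CPM, in the same order. The HOXD sum went the other way, at 2.71 ± 0.235, 2.79 ± 0.783 and 23.1 ± 1.44 CPM (SD, n = 3 each).

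The promoters of 20 HOX genes stand in RefSeq's table of windows from 250 bases before to 50 after a transcription start (GRCh38.p14), 26 different windows in all, of which HOXC4 and HOXC5 share 1, and 18 members have no entry. The following 4 are shown from the 250 bases before the start, because HOXA7 and HOXD8 had the largest fall and the largest rise in vehicle-treated knockout cells among the tested genes with an entry, and HOXA2 and HOXD3 are a gene that fell and a gene that rose that hold a searched motif. Capitals mark the motifs. HOXA2 lies at chr7:27102684-27102933, minus strand; HOXA7 at chr7:27156676-27156925, minus strand; HOXD3 at chr2:176157057-176157306, plus strand; and HOXD8 at chr2:176129455-176129704, plus strand.
HOXA2: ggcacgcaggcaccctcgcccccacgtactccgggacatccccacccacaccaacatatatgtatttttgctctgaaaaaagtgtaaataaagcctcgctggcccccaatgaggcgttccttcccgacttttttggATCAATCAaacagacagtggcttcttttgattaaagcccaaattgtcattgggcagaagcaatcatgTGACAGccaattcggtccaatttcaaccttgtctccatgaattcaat
HOXA7: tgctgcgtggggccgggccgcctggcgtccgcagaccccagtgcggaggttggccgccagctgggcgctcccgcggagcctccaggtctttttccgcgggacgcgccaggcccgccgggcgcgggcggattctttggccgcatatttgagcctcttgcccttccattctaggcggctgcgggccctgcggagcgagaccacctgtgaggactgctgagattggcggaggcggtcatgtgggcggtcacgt
HOXD3: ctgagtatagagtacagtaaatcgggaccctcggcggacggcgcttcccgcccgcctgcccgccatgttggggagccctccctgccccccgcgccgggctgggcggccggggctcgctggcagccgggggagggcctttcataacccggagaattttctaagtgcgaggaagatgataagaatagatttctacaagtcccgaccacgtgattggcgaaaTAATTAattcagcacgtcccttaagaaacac
HOXD8: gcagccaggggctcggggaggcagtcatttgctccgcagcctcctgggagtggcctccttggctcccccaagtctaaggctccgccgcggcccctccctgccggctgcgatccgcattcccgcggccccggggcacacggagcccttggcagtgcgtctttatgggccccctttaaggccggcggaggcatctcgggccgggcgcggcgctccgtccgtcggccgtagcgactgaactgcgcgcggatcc
The motifs searched on both strands were TGATNNAT, bound by PBX together with HOX proteins, TGACAG, bound by MEIS proteins, TAATTA, the core site of many homeodomains, and the direct repeat DR5 of the retinoic acid receptor. TGATNNAT was in 3 of the 26 HOX windows (11.5%) and in 7.42% of all 34943 windows, TGACAG in 4 (15.4%) and in 15.8%, and TAATTA in 2 (7.69%) and in 4.85%. By gene, these 3 motifs were in 3, 4 and 2 of the 20 genes. The windows are unevenly spread, since HOXA3 has more than any other gene, and none of its windows holds a motif. The DR5 repeat was in none of the HOX windows and in 2 of all windows. The HOX windows had a median of 58.0% G and C and 22.5 CG pairs, against 58.7% and 14 over all windows. Among the 4 genes shown, HOXA7, which fell, and HOXD8, which rose, had 31 and 34 CG pairs in the full window and none of the motifs. Whether motifs or CG pairs bear on the direction of change was not tested.

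HOX expression in CARM1 knockout cells was compared first under vehicle. Of the 30 HOX genes tested, 19 fell and 9 rose at a false discovery rate of 5% (edgeR quasi-likelihood test, Benjamini-Hochberg adjustment over all genes). Over all genes tested 36.9% were lower and 37.5% higher, and the median log2 fold change was −2.39 for the HOX genes and −0.03 over all genes. The other 8 of the 38 genes, HOXA13, HOXB1, HOXC5, HOXC12, HOXD1, HOXD10, HOXD11 and HOXD12, did not pass the filter. The calls are given by cluster and paralog group. Of 19 tested HOXA, HOXB and HOXC genes of paralog groups 1 to 9, 18 were lower and 0 higher, with HOXA4 not called. Of 6 tested genes of paralog groups 10 to 13 in these clusters, 4 were higher (HOXA10, HOXB13, HOXC11 and HOXC13), 1 was lower (HOXC10) and HOXA11 was not called. Of the 4, HOXB13, HOXC11 and HOXC13 had 18, 0 and 4 summed counts in vehicle-treated control cells, and HOXA10 had 127. All 5 tested HOXD genes were higher. HOXD3, HOXD4, HOXD8, HOXD9 and HOXD13 had 35, 7, 12, 20 and 30 summed counts in vehicle-treated control cells. The filter ran over all libraries. Genes near 0 in control cells thus entered through libraries where they were high, and could hardly be called lower. The reverse held for HOXA6 and HOXB8, with 1 summed count each in vehicle-treated knockout cells. The counts of calls therefore test no pattern by cluster or paralog group.

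In HOXA, HOXA5, known for its part in lung and axial patterning, had 452, 431 and 473 counts in the vehicle-treated control libraries and 35, 33 and 24 in the knockout libraries. Its log2 fold change was −3.62 (SE 0.123, adjusted p = 4.25e-13). HOXA7, a gene of the central paralog groups that pattern the trunk, had 810, 838 and 763 counts in control and 2, 1 and 4 in knockout libraries, a 275-fold difference (log2 −8.10, SE 0.224, adjusted p = 3.48e-14). HOXA9, a regulator of blood stem cells and of the oviduct region, had 545, 596 and 648 counts against 15, 17 and 3 (log2 −5.41, SE 0.179). The control and knockout libraries of these 3 genes did not overlap. HOXA6 had 21, 25 and 21 counts in control and 1, 0 and 0 in knockout libraries, and the ratio of the summed counts was 54.2 (exact 95% interval 9.41 to 2173, counting error only). HOXA2, a hindbrain and branchial arch gene whose promoter holds the PBX-HOX and MEIS motifs, had 58, 36 and 62 counts against 5, 6 and 3 (log2 −3.19, SE 0.363). HOXA3, known for the development of pharyngeal organs, had 85, 121 and 106 against 31, 38 and 14 (log2 −1.66, SE 0.226). HOXA2 and HOXA3 libraries also did not overlap between the genotypes.

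HOXA4 was an exception within HOXA. It had 67, 71 and 60 counts in control and 51, 62 and 34 in knockout libraries, which overlapped (log2 −0.18, SE 0.20, adjusted p = 0.43). HOXA10, which marks the uterine region of the Müllerian duct, went the other way, with 49, 43 and 35 counts in control and 162, 152 and 126 in knockout libraries (log2 2.05, SE 0.174, adjusted p = 3.13e-08). HOXA11, its neighbour, had 29, 22 and 26 counts against 19, 35 and 20, with overlap (log2 0.21, SE 0.31).

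In HOXB, 8 of 9 tested genes were lower, and they included the largest falls of the family. HOXB5, of the central groups, had 5485, 5506 and 5677 counts in control and 5, 16 and 9 in knockout libraries, a 460-fold difference (log2 −8.84, SE 0.130, adjusted p = 2.5e-17). HOXB8, known in myeloid cells, had 466, 457 and 482 counts against 1, 0 and 0, a ratio of summed counts of 1137 (exact 95% interval 204 to 44945). HOXB9, which patterns the thoracic region, had 2031, 2054 and 2187 counts against 26, 16 and 26 (log2 −6.26, SE 0.120). The 2 genotypes did not overlap for any of these genes, and the upper ends of the knockout ranges lay under 30 counts. HOXB6 had 1409 to 1700 counts against 15 to 25 (log2 −5.98, SE 0.102) and HOXB3 923 to 1116 against 13 to 19 (log2 −5.77, SE 0.133); these 2 genes share 433 exon bases. HOXB2, a hindbrain gene, had 646 to 936 counts against 35 to 70 (log2 −3.61), and HOXB4, known for expanding blood stem cells, 1212 to 1436 against 136 to 168 (log2 −2.83). HOXB7 fell least among them, from 1317 to 1427 counts to 299 to 422 (log2 −1.62, SE 0.0621). HOXB13, the terminal gene of the cluster and a prostate factor, had 5, 7 and 6 counts in control and 47, 33 and 30 in knockout libraries (log2 2.84, SE 0.342, adjusted p = 1.81e-06).

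**Figure D2:**
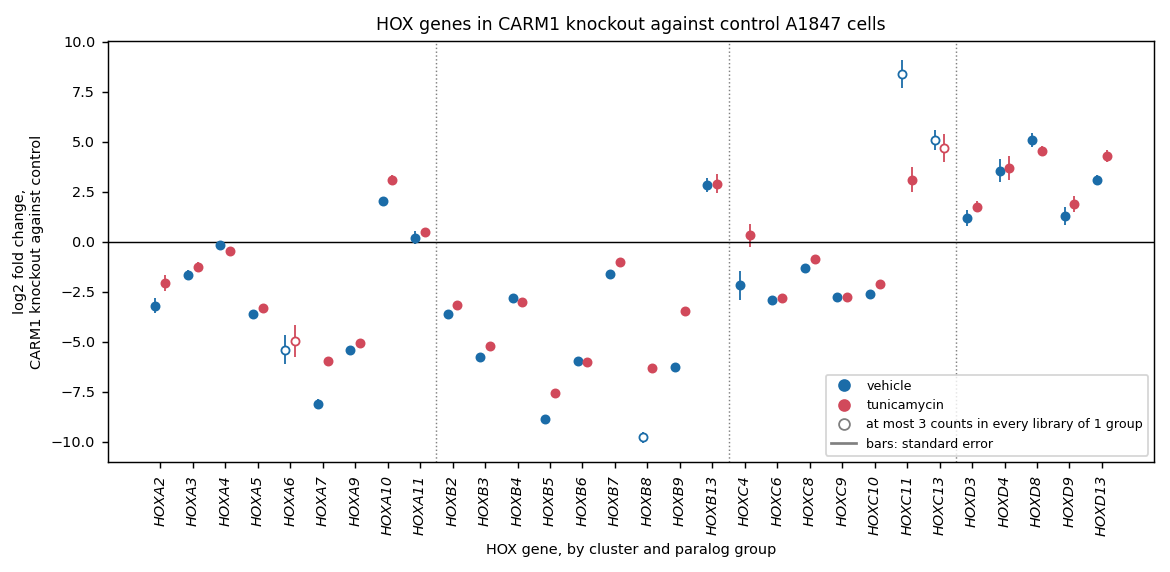
Log2 fold change of the 30 tested HOX genes in CARM1 knockout against control A1847 cells (points, fitted values; bars, standard error) with vehicle (blue) and tunicamycin (red), in cluster order with dotted lines between clusters. Open points are genes with at most 3 counts in every library of 1 group, whose fitted value is no measure of size. Most of HOXA and HOXB lie below 0, HOXA10 and HOXB13 above it, and the 5 HOXD genes lie above 0 in both treatments.

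In HOXC, the fall was smaller for the central genes. HOXC6 had 4512, 4834 and 5315 counts in control and 601, 644 and 408 in knockout libraries (log2 −2.89, SE 0.0590, adjusted p = 8.54e-16), and HOXC9, which sets thoracic motor neuron identity, had 2849, 2909 and 3031 against 389, 396 and 291 (log2 −2.77, SE 0.0613). HOXC10, a lumbar gene, fell by 2.59 on the log2 scale and HOXC8, a thoracic gene, by 1.30, and the knockout libraries of HOXC8 still had 692 to 1073 counts. HOXC11, a hindlimb-level gene, had 0 counts in all 3 vehicle-treated control libraries and 46, 39 and 28 in the knockout libraries, at least 46.5-fold higher against a floor of 3 counts over the group (adjusted p = 1.32e-07). HOXC13, known for hair and nail formation, had 2, 2 and 0 counts against 47, 41 and 36, a ratio of 38.3 (exact 95% interval 14.6 to 143). For these 2 terminal genes the groups did not overlap.

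HOXC4 could not be read in the same way. It had 0 counts in tunicamycin-treated control library 2 and in vehicle-treated knockout libraries 1 and 2, and 110 to 263 counts in the other 15 libraries. ENSG00000273266, a row to which the tables used here give no symbol, had 162, 179 and 201 counts in those 3 libraries and at most 8 in the others, and it was the only one of the 57736 rows above 50 counts in the 3 and below 25 in the other 15. How the 2 rows are related was not tested. HOXC4 alone was called lower in vehicle-treated knockout cells (log2 −2.18, SE 0.715, adjusted p = 0.0124), a call lost without knockout library 1 (log2 −1.49) or library 2 (log2 −1.53); without library 3 both remaining knockout libraries were at 0, and the fitted value is no measure of size. The same holds for any fitted change where 1 group stays at or under 3 counts. The sum of both rows, chosen after seeing the data, was 232 to 268 counts in control and 133 to 201 in knockout libraries (log2 −0.31, SE 0.114, adjusted p = 0.0215).

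**Figure D3:**
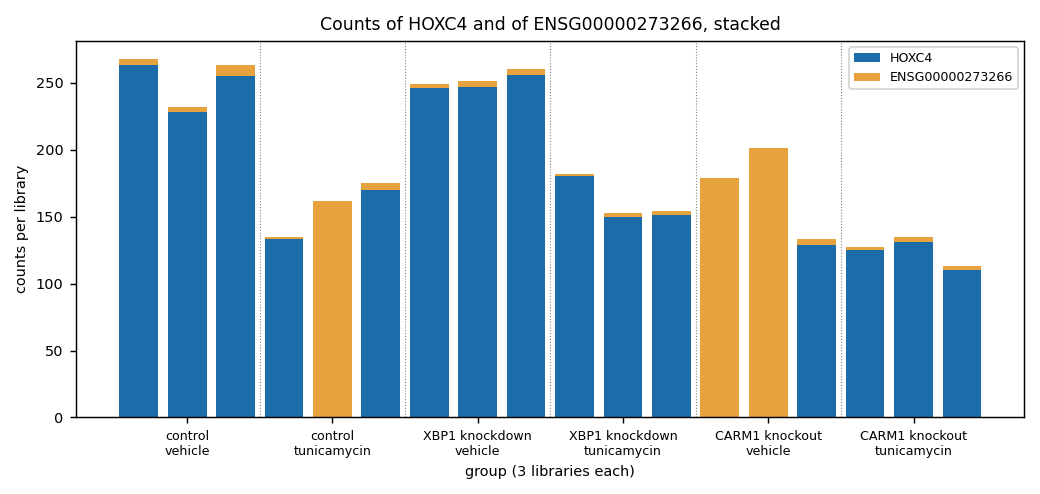
Counts of HOXC4 (blue) and of ENSG00000273266 (orange), stacked, in each of the 18 libraries by group. In tunicamycin-treated control library 2 and vehicle-treated knockout libraries 1 and 2 the whole bar is ENSG00000273266, at 162, 179 and 201 counts, and in the other 15 it is nearly all HOXC4.

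All tested HOXD genes were higher in knockout cells. Each had under 10 counts in at least 1 vehicle-treated control library. They were thus left out where at least 10 counts in every library were required. HOXD8 had 2, 9 and 1 counts in the vehicle-treated control libraries and 126, 124 and 94 in the knockout libraries (log2 5.06, SE 0.349, adjusted p = 2.58e-09), without overlap. HOXD13, which is known for digit formation, had 7, 11 and 12 counts against 83, 79 and 51 (log2 3.07, SE 0.255), and HOXD4 had 5, 1 and 1 against 39, 21 and 14 (log2 3.55, SE 0.569), also without overlap. HOXD1 had 0 counts in every control and XBP1 knockdown library and 8, 3 and 5 in the vehicle-treated knockout libraries, at least 6.59-fold higher against the floor over the group. HOXD3, whose promoter holds a TAATTA site, had 14, 9 and 12 counts against 32, 27 and 9, and HOXD9 had 4, 6 and 10 against 17, 13 and 11. The HOXD3 groups overlapped. The HOXD9 groups lay 1 count apart before scaling to library size, and further apart in CPM. Knockout library 3, with 11 counts of HOXD9, had the lowest library total, 9367462. Their calls (log2 1.17, adjusted p = 0.0143, and log2 1.29, adjusted p = 0.0179) were not made by DESeq2, and that of HOXD3 was lost without knockout library 1 (log2 0.95) or 2 (log2 1.06) and that of HOXD9 without control library 1 (log2 1.08) or knockout library 1 (log2 1.22).

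Under tunicamycin, 19 of the 30 tested genes were again lower in the CARM1 knockout and 9 higher, against 36.8% lower and 38.4% higher of all genes tested, with a median log2 fold change of −1.68 against −0.02. As with vehicle, genes near 0 in control cells could hardly be called lower. HOXB5 had 3004, 3193 and 3426 counts in control and 16, 22 and 11 in knockout libraries (log2 −7.58, SE 0.104), and HOXB6 had 838, 829 and 886 against 8, 18 and 13 (log2 −6.00, SE 0.133). HOXC6 (log2 −2.83) and HOXC9 (log2 −2.75) had nearly the values seen with vehicle. The difference in HOXB9 was smaller under tunicamycin, at 2026, 2607 and 2538 counts against 223, 200 and 214 (log2 −3.47, SE 0.0955). HOXD13 had 4 counts in each control library and 59, 92 and 86 in the knockout libraries (log2 4.28, SE 0.305), and HOXD8 had 3, 8 and 7 against 131, 135 and 150 (log2 4.53, SE 0.242). HOXA10 had 7, 17 and 20 counts in control and 125, 128 and 120 in knockout libraries (log2 3.10, SE 0.236). HOXD1 had 9, 22 and 21 counts in knockout libraries and 0 in control libraries, at least 17.6-fold higher against the floor over the group. HOXA4 was called here (log2 −0.46, SE 0.198, adjusted p = 0.046) but not when any 1 of the 6 libraries was left out (log2 −0.51 to −0.42). HOXC4 was not called.

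**Figure D4:**
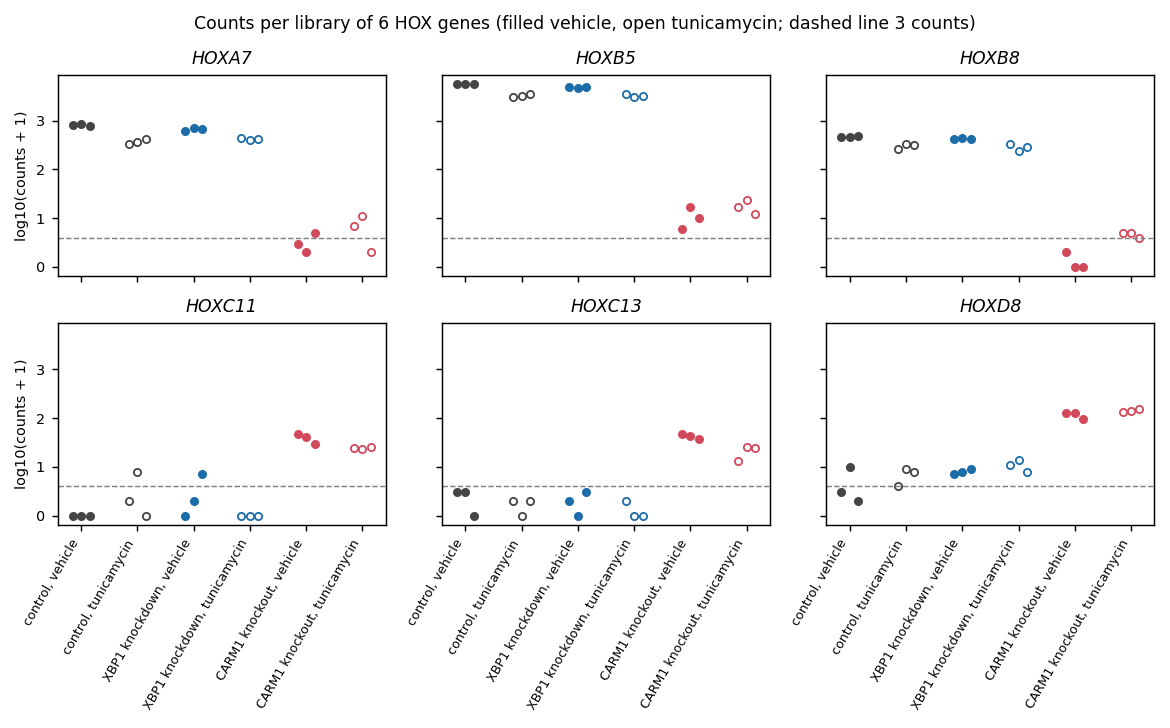
Counts per library of HOXA7, HOXB5, HOXB8, HOXC11, HOXC13 and HOXD8 as log10 of counts plus 1, by group (filled, vehicle; open, tunicamycin; dashed line, 3 counts). The top genes lie high in control (black) and XBP1 knockdown (blue) and low in CARM1 knockout (red), and the bottom genes lie the other way round.

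XBP1 knockdown and control cells were compared in the same way under vehicle. Of the 30 tested genes, 0 were higher and 1 lower, against 2.07% higher and 3.03% lower of all genes tested, while 7 had an unadjusted p under 0.05; DESeq2 called 1 higher. The gene called was HOXB5, with 5485, 5506 and 5677 counts in control and 4902, 4692 and 4837 in knockdown libraries (log2 −0.22, SE 0.0555, adjusted p = 0.0306); the call was lost without control library 1 or 2 or knockdown library 2 or 3 (log2 −0.22 to −0.19). The 9 tested HOXA genes had a median log2 fold change of −0.29, with 4 at an unadjusted p under 0.05 and 0 called by edgeR; HOXA7, with 763 to 838 counts in control and 616 to 700 in knockdown libraries, had the lowest adjusted p of these (log2 −0.29, SE 0.0803, adjusted p = 0.0532). Among genes with many counts, the 95% interval of HOXC6 ran from −0.00 to 0.18 on the log2 scale, that of HOXB9 from −0.09 to 0.14 and that of HOXC9 from −0.14 to 0.06. The intervals were wider for genes with few counts, from −0.65 to 2.18 for HOXD8 and from −1.63 to 0.58 for HOXD13, so that changes of that size were not detectable at this depth.

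With tunicamycin, 7 of the 30 genes were higher in XBP1 knockdown than in control cells and 0 lower, against 6.99% higher and 8.55% lower of all genes tested; by either direction 9 had an unadjusted p under 0.05, and DESeq2 called 6 higher and 0 lower. The 7 genes were HOXB2, HOXB4, HOXB7, HOXB9, HOXC8, HOXC9 and HOXC10. The largest difference was in HOXC8, with 1469, 1364 and 1541 counts in control and 2324, 1821 and 2045 in knockdown libraries (log2 0.49, SE 0.0529, adjusted p = 1.23e-05). HOXC10 had 1316, 1368 and 1461 counts against 1994, 1673 and 1863 (log2 0.41, SE 0.0534, adjusted p = 7.84e-05) and HOXC9 1789, 1851 and 1973 against 2407, 2105 and 2179 (log2 0.25, SE 0.0504). The groups did not overlap for these 3 HOXC genes. The 4 HOXB genes differed by 0.25 to 0.32 on the log2 scale, and each lost its call without control library 3. HOXB9 also lost it without control library 1 or knockdown library 2 or 3 (0.24 to 0.33), HOXB2 without knockdown library 1 or 3 (0.21 to 0.29), HOXB4 without knockdown library 2 or 3 (0.22 to 0.24) and HOXB7 without knockdown library 2 (0.19 to 0.25). Without tunicamycin-treated control library 3 the count of higher genes was 3, and without knockdown library 2 or 3 it was 4. None of the 7 called genes reached a 1.5-fold difference.

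Tunicamycin lowered HOX genes in control cells. Of the 30 tested, 15 were lower and 1 higher with tunicamycin than with vehicle, against 19.9% lower and 22% higher of all genes tested, with a median log2 fold change of −0.55 against 0 over all genes. HOXC10 fell from 2619, 2827 and 2672 counts to 1316, 1368 and 1461 (log2 −0.81, SE 0.0634, adjusted p = 2.75e-08). HOXA7 fell from 763 to 838 counts to 336 to 421 (log2 −0.95, SE 0.0907), and HOXC6 from 4512 to 5315 to 2526 to 2742 (log2 −0.71, SE 0.0528). HOXB5, HOXB6 and HOXC8 fell by 0.63, 0.70 and 0.69 on the log2 scale. HOXA10 fell from 35 to 49 counts to 7 to 20 (log2 −1.37, SE 0.341). HOXB9 was the gene that rose, from 2031, 2054 and 2187 counts to 2026, 2607 and 2538 (log2 0.35, SE 0.0749, adjusted p = 0.00106), with overlap of the raw counts, and the CPM values, 152 ± 5.3 and 192 ± 23 (SD, n = 3), take library size into account. HOXA9, next to HOXA7, had 545 to 648 counts with vehicle and 517 to 606 with tunicamycin (log2 0.04, SE 0.07), and the ranges overlapped.

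XBP1 knockdown cells had 15 HOX genes lower and 2 higher with tunicamycin, against 19% lower and 19.2% higher of all genes tested, with a median log2 fold change of −0.37. HOXC6 fell by 0.76 (SE 0.0457), HOXB6 by 0.72 and HOXB3 by 0.65 on the log2 scale. The 2 that rose were HOXB9, from 2222, 2109 and 2123 counts to 2888, 2941 and 3146 (log2 0.62, SE 0.0796), and HOXB2, from 765, 741 and 841 to 1108, 728 and 903 (log2 0.35, SE 0.0770, adjusted p = 0.00177). HOXB9 libraries did not overlap between the treatments. HOXB2 libraries overlapped in raw counts and not in CPM, which take library size into account. The interaction, which sets the tunicamycin response of one genotype against that of the other, was called for 1 HOX gene higher and 0 lower in XBP1 knockdown against control cells, against 0.364% and 1.67% of all genes tested; 11 had an unadjusted p under 0.05, and DESeq2 called 4 higher and 0 lower. It was HOXC8, which fell by 0.69 in control and 0.40 in knockdown cells (interaction log2 0.29, SE 0.0688, adjusted p = 0.0284). The call was lost when any of 7 libraries was left out (log2 0.26 to 0.30): control vehicle 1 or 2, control tunicamycin 2 or 3, knockdown vehicle 1 or 3, or knockdown tunicamycin 3.

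In CARM1 knockout cells, 9 HOX genes were lower and 4 higher with tunicamycin, against 18.8% lower and 20.6% higher of all genes tested, with a median log2 fold change of −0.12. HOXC6 fell from 601, 644 and 408 counts to 350, 386 and 367 (log2 −0.68, SE 0.0732) and HOXB4 from 164, 168 and 136 to 104, 104 and 87 (log2 −0.77, SE 0.130). HOXC13 fell from 47, 41 and 36 counts to 12, 25 and 23 (log2 −1.15, SE 0.268). The largest response was the rise of HOXB9, from 26, 16 and 26 counts to 223, 200 and 214, 8.68-fold (log2 3.12, SE 0.183, adjusted p = 5.27e-12), and no library of one treatment came near the other. The tunicamycin-treated control libraries of HOXB9 had 2026 to 2607 counts. HOXD3 rose from 32, 27 and 9 counts to 40, 77 and 74 (log2 1.40, SE 0.275) and HOXD9 from 17, 13 and 11 to 30, 28 and 40 (log2 1.15, SE 0.299), without overlap. HOXB2 had 70, 52 and 35 counts with vehicle and 57, 92 and 95 with tunicamycin (log2 0.54, adjusted p = 0.0264), with overlap, and the call was lost without vehicle library 2 or 3 or tunicamycin library 2 or 3 (log2 0.43 to 0.48).

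The interaction of CARM1 knockout and tunicamycin was called for 9 HOX genes, 8 of them higher (a response more positive in knockout cells) and 1 lower, against 10.5% higher and 12.4% lower of all genes tested. HOXB9 had the firmest interaction (log2 2.75, SE 0.215, adjusted p = 1.09e-08). HOXB7 fell by 0.55 in control cells, where it had 1317 to 1427 counts with vehicle and 792 to 894 with tunicamycin, and went from 422, 399 and 299 to 399, 423 and 420 counts in knockout cells (interaction log2 0.58, SE 0.0831, adjusted p = 3.14e-05). HOXC8 and HOXC10 fell in both genotypes, less so in knockout cells (interactions 0.41 and 0.44, adjusted p = 0.000432 and 0.00185). For HOXA7, HOXB5 and HOXB8 the knockout values behind the interaction were 1 to 10, 5 to 22 and 0 to 4 counts. The HOXB5 interaction was 1.22 and was not called without vehicle-treated knockout library 1 or tunicamycin-treated knockout library 2 (0.79 to 0.96), and that of HOXA7 was 2.07 and was not called without vehicle-treated or tunicamycin-treated knockout library 1 or 2 (1.41 to 2.00). HOXA10 fell less in knockout cells, with an interaction of 1.00 that was not called without any of 5 libraries (0.77 to 0.97): library 1 of any of the 4 groups or vehicle-treated knockout library 2. The count of higher interactions was 5 without vehicle-treated knockout library 1, and HOXC11, the lower one, was not called without tunicamycin-treated control library 2, in which it had 7 counts.

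**Figure D5:**
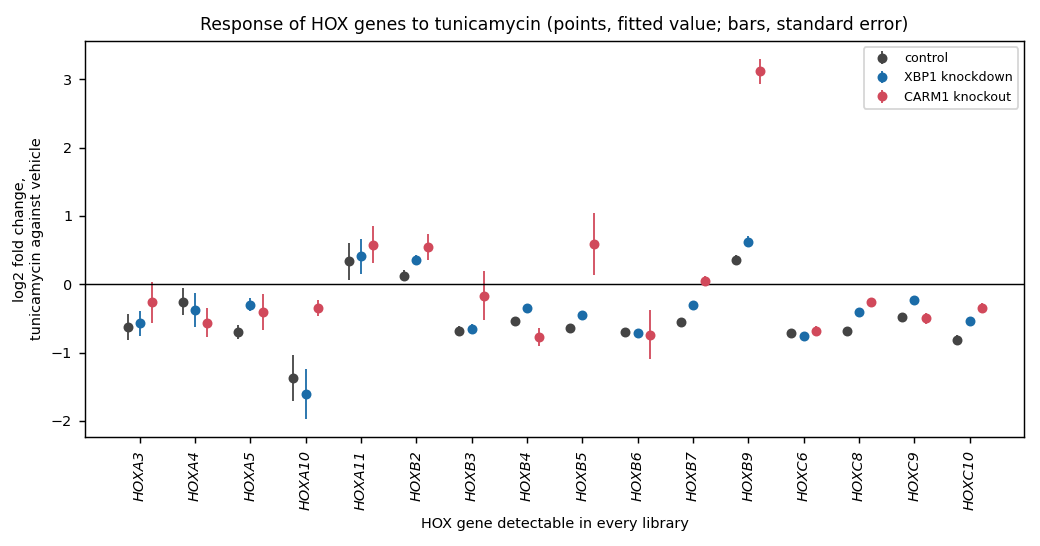
Log2 fold change of tunicamycin against vehicle for the 16 HOX genes detectable in every library (points, fitted values; bars, standard error) in control (black), XBP1 knockdown (blue) and CARM1 knockout (red) cells. Most points lie below 0, and HOXB9 in CARM1 knockout cells stands at 3.12.

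The genes that work with HOX proteins were read beside them, from fixed lists of their pathways. Of 8 tested cofactors, the PBX, MEIS and PKNOX homeodomain proteins that bind DNA together with HOX proteins, 6 fell and 1 rose in vehicle-treated CARM1 knockout cells, where 36.9% of all genes tested were lower and 37.5% higher. MEIS1 had 1519 to 1738 counts in control and 20 to 33 in knockout libraries (log2 −5.68, SE 0.0986), and MEIS3 had 2174 to 2366 against 135 to 247 (log2 −3.19, SE 0.0761). In vehicle-treated XBP1 knockdown cells 4 cofactors were lower, against 3.03% of all genes tested, among them MEIS3, with 811 to 835 counts (log2 −1.46, SE 0.0594). With tunicamycin, 3 were lower in the knockdown, against 8.55% of all genes tested.

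Of 11 tested noncoding genes of the clusters, 8 were lower and 3 higher in vehicle-treated knockout cells, against 36.9% and 37.5% of all genes tested, and 0 were called by edgeR in vehicle-treated XBP1 knockdown cells, with 2 at an unadjusted p under 0.05. Reads of an antisense gene and its partner may not be told apart here. HOXB-AS3 had 171 to 179 counts in control and 1 to 2 in knockout libraries, beside the HOXB genes that fell. HAGLR, within HOXD, had 0 counts in control and 35 to 49 in knockout libraries, beside the HOXD genes that rose. Of 8 ParaHox and neighbouring homeobox genes 1 could be tested: CDX2, an intestinal factor and an activator of HOX genes in the embryo, had 0 counts in vehicle-treated control libraries and 109 to 167 in knockout libraries.

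Among 18 Polycomb genes, 11 were lower and 6 higher in vehicle-treated knockout cells, against 36.9% and 37.5% of all genes tested. Those with the largest changes fell, with CBX2 at 972 to 1129 counts in control and 64 to 131 in knockout libraries (log2 −3.11, SE 0.0982) and BMI1 at 927 to 1157 against 159 to 234 (log2 −2.16, SE 0.0781). Those that rose included EZH2, which methylates H3K27, at 1964 to 2057 counts against 2295 to 3393 (log2 0.81, SE 0.0531), and JARID2, a partner of it, at 848 to 961 against 1374 to 2101 (log2 1.21, SE 0.0570). Of 10 Trithorax genes and H3K27 demethylases, 6 were lower and 3 higher, against the same 36.9% and 37.5%, with KMT2A, which keeps HOX genes active, at 10613 to 10856 counts against 3050 to 4643 (log2 −1.20, SE 0.0542). Of 8 tested genes of retinoic acid, an inducer of HOX genes, 3 were lower and 4 higher, again against 36.9% and 37.5%. CRABP2, a retinoic acid carrier, had 7170 to 8552 counts against 52 to 100 (log2 −6.41, SE 0.0728), and ALDH1A3, which makes retinoic acid, had 0 to 2 against 59 to 110. In vehicle-treated XBP1 knockdown cells CRABP2 was the 1 retinoic acid gene called (log2 −0.77), 1 Polycomb gene was lower and 1 higher, and 0 Trithorax genes were called by edgeR, with 2 at an unadjusted p under 0.05.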

How the data were processed

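Libraries of mRNA 3 prime ends from A1847 cells were read as single 75 nt reads. The authors used bowtie2 and RSEM (version 1.2.3 in the submitters' processing notes, and another version in the study's methods) with hg19, and their deposited table holds expected counts by Ensembl identifier, without normalization; the Ensembl release, strand setting and any filter are not given in the sources used here. The values are whole numbers. Groups followed the labels, and symbols were matched by Ensembl identifier for 55501 genes. The members and gene lists were chosen with earlier results of these data known. All 38 members are accounted for, and at most 4 genes a list are named, those with the largest change in vehicle-treated CARM1 knockout cells or called in XBP1 knockdown cells; HOTAIRM1, EZH2, JARID2, KRT19, COL1A1, ENSG00000273046 and ENSG00000273266 were named after their values were seen.

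Tests were run in R 4.3.3 with edgeR 4.0.16 (filterByExpr over all libraries with a minimum count of 10, TMM factors, quasi-likelihood fits of the compared groups alone) with Benjamini-Hochberg adjusted p over the 17317 genes. The SE is the size of the log2 value over the root of the F statistic, and 95% intervals use the normal approximation from it. CPM are counts scaled by library total and TMM factor. Scripts were tested on simulated data. With 3 libraries a group, an exact permutation test cannot go below 0.1 and none is given. Chi-square per degree of freedom between replicates was 1.84 to 6.89 over genes with at least 20 counts, so that no pair was counted as 1 library. Intervals of count ratios are exact binomial intervals. Alternatives were DESeq2 (1.42.0), its size factors, other filters, all libraries in 1 fit, a replicate block, a 1.5-fold threshold, other detection limits and each library left out.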

Additional observations from a re-analysis of the deposited data

Results flagged for a closer look

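The response to tunicamycin differed between CARM1 knockout and control cells, by the test of the interaction itself, for 9 HOX genes. The interactions on the log2 scale were 2.07 for HOXA7, 1.00 for HOXA10, 1.22 for HOXB5, 0.58 for HOXB7, 3.43 for HOXB8, 2.75 for HOXB9, 0.41 for HOXC8, 0.44 for HOXC10 and −5.30 for HOXC11. HOXA7, HOXB5 and HOXB8 had at most 22 counts in any knockout library. HOXB8 had 1, 0 and 0 counts in the vehicle-treated knockout libraries and HOXC11 had 0 in the vehicle-treated control libraries, so that their fitted values are no measure of size. The interactions of HOXA7, HOXA10, HOXB5 and HOXC11 were not called without 1 of 4, 5, 2 and 1 libraries, and that of HOXA7 was not called with the replicate block. The response differed between XBP1 knockdown and control cells for HOXC8, with an interaction of 0.29, which was not called without any 1 of 7 libraries or with the replicate block. Groups of 3 libraries were not searched for single libraries that stand apart.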

How the results depend on the processing

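The 19 and 9 HOX genes lower and higher in CARM1 knockout cells stayed within 1.5 times of these counts under DESeq2, its size factors in edgeR, no filter, all libraries in 1 fit, the 1.5-fold threshold and each library left out. With at least 10 counts in every library of the fit, which removes genes near 0, they were 12 lower and 1 higher with vehicle and 2 higher with tunicamycin, the higher and lower interactions with the knockout 4 and 0, the XBP1 knockdown with vehicle 1 higher and 2 lower, and its interaction 2 higher. For XBP1 knockdown with vehicle, DESeq2 and 1 fit of all libraries called 1 higher, no filter 1 higher and 2 lower, and the 1.5-fold threshold 0 lower. Its interaction was called higher for 4 genes by DESeq2, 6 without a filter (and lower for 1), 3 in 1 fit and 2 with DESeq2's size factors. The 1.5-fold threshold left 0 genes higher in the knockdown with tunicamycin, 0 for its interaction, 0 higher with tunicamycin in control cells, 4 lower in knockout cells, 1 higher and 4 lower in knockdown cells and 5 higher interactions with the knockout. In 1 fit, 2 genes rose with tunicamycin in control cells.

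With 1 library left out, the knockdown had 0 to 1 genes higher and 0 to 2 lower with vehicle and 3 to 7 higher with tunicamycin. Tunicamycin raised 1 to 2 in control cells. The interactions were 5 to 9 higher and 0 to 1 lower for the knockout and 0 to 4 higher for the knockdown. Deviations of same-numbered libraries from their group means had correlations of −0.213 to 0.133. With 3 libraries a group, these values cannot show whether the numbers mark shared cultures or batches. With the replicate block the knockdown interaction had 0 higher genes, and the other counts stayed within 1.5 times.

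At least 10 counts in every library gave 3 HOX genes in control and not in CARM1 knockout cells and 5 the other way; at least 1 CPM gave 4 and 6, and a median above 3 gave 5 the other way. With overlapping spans on 1 strand summed to 23 units, the detectable units were 13, 12 and 16 in control, XBP1 knockdown and CARM1 knockout cells, 14 and 13, 12 and 15, and 16 and 18 in their vehicle and tunicamycin groups, with 0 in control only and 1 in knockout only. HOXC4 turned in direction when summed with ENSG00000273266: −0.30 for knockout against control with tunicamycin and −0.55 for tunicamycin in knockout cells; the cause was not tested.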

Other observations

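Retinoic acid receptor genes moved in CARM1 knockout cells beside the HOX genes: RARB had 42 to 57 counts in vehicle-treated control libraries and 0 to 1 in knockout libraries, and RARG had 489 to 626 against 52 to 69 (log2 −2.91, SE 0.105). KDM6B, an H3K27 demethylase, had 50 to 57 counts against 1 to 11 with vehicle, and with tunicamycin 139 to 146 against 15 to 21. HOTAIRM1, a noncoding RNA of the HOXA cluster, had 94 to 118 counts in vehicle-treated control and 171 to 244 in knockout libraries, where HOXA2 had 3 to 6. HOTAIRM1 was chosen after its values were seen.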
